A study of Mus musculus with 2 samples.

Results

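Adrenomedullin and apelin are secreted peptides that act on vessels through G protein-coupled receptors. The genes described here are the ligands Adm and Apln, the adrenomedullin receptor chain Calcrl with its accessory subunits Ramp1, Ramp2 and Ramp3, and the apelin receptor Aplnr. These 7 genes were found by the gene name that the array design gives to its probes, and they hold 9 of the 39429 probes. They are 7 of 31883 named genes and unnamed transcripts that the array covers. Of the 7, 6 had a probe well above background on both arrays and 1, Aplnr, had none on either.

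The cells were liver sinusoidal endothelial cells (LSEC), the fenestrated lining of the liver capillaries, from male mice aged 8 weeks. One preparation came from an ob/ob mouse, which lacks functional leptin through a mutation in all its tissues and becomes obese, and the other from a wild-type mouse. Both preparations were released with collagenase and spent a night in DMEM with serum before RNA extraction, so every level below is that of cultured cells. Each genotype is 1 mouse and 1 array, and the labels give no strain background. There is therefore no replicate of either genotype, no test was run, and each value compares these 2 arrays only.

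The receptor Calcrl reaches the cell surface with a small single-pass partner of the RAMP family, and the partner sets which peptide it prefers. With RAMP1 it forms the receptor of calcitonin gene-related peptide, a vasodilator of sensory nerves, and with RAMP2 or RAMP3 it forms the receptors of adrenomedullin. In mice, adrenomedullin acting through Calcrl and Ramp2 is needed for the development of blood and lymphatic vessels and for the barrier of the endothelium. Apelin, made by sprouting endothelial tip cells among others, acts on the separate receptor Aplnr, and both Adm and Apln are known as genes that low oxygen induces.

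A level is given below as the processed signal of a spot divided by the 75th percentile of its array, which was an intensity of 1430 on the ob/ob array and 989 on the wild-type array. Probes differ in binding strength, so levels are compared between arrays and never between genes. Differences are log2 of the ob/ob level minus log2 of the wild-type level. Of the 18139 genes measured on both arrays, ob/ob LSEC had 5.82% higher by 2-fold or more and 2.29% lower by as much (1056 and 416 genes, and 767 and 977 with scaling on the array median), and the median difference was -0.12 with quartiles of -0.34 and 0.16. Among the 6 members measured on both arrays, 0 were at least 2-fold higher and 1, Ramp3, was at least 2-fold lower, with a median of 0.06. The yardstick for a single difference is technical. The scanner's error model gave an SD of 0.20 to 0.24 for the measured members, and the SD between probes of the same gene was 0.33 (3693 genes with several measured probes). Neither holds the spread between mice or preparations.

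Macrophage, hepatocyte and stellate cell genes were at higher levels in the ob/ob preparation. Of 12 macrophage markers 11 were at least 2-fold higher (summed level 161 in ob/ob and 56.8 in wild-type), of 11 measured hepatocyte markers 10 (50.6 and 8.98), and of 10 measured stellate cell and fibroblast markers 9 (36.8 and 9.21), where with normexp and the 75th percentile 2 were, with a list median of 0.66 in place of 2.05. A summed level is carried by the brightest probes. In the stellate cell list Dcn alone had 33.2 in ob/ob and 8.00 in wild-type. In the macrophage list Marco had 63.6 in ob/ob and 26.1 in wild-type, and Cd5l 45.5 and 18.4. Of the 3 lists only the hepatocyte marker Cps1 was above background on neither array. All 12 LSEC markers were within 2-fold, with a median of -0.24 and a summed level of 83.7 in ob/ob and 103 in wild-type, and so were all 10 pan-endothelial markers, with a median of 0.01. Other cell types can express members of the pathway too, and whether a difference in cell makeup has a part in the values below was not tested. In such a bulk RNA, fewer cells of a type and less RNA per cell cannot be told apart.

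The probe sequences matter for Ramp3 and Ramp1, because these loci carry more than 1 probe. The Ramp3 probe lies at chr11:6577416-6577475 (mm9, plus strand). A further probe at chr11:6577424-6577483, listed under LOC100046186 and the model transcript XM_001475752, shares 52 of its 60 bases with it, and the Ramp3 probe itself lists that model among its accessions. The first 30 bases of each are shown, with the shared stretch in capitals.

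Ramp3 probe: tgagtgtgCTCAAGGGTTCTGTCTGCTGAT
LOC100046186 probe: CTCAAGGGTTCTGTCTGCTGATGTCAGTTC

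Ramp1 has 3 probes. Probe a reads the transcripts NM_001168392 and NM_178401 at chr1:93102223-93102282. Probe b reads NM_016894 and is placed from 93093453 to 93119708 on the same chromosome, a span of 26256 bases for 60 probe bases. Probe c reads NM_016894 at chr1:93121428-93121487. The first 30 bases of each are shown because the probes read different stretches of the gene.

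Ramp1 probe a: cttcttaggtgttccccctctttctatact
Ramp1 probe b: agacgctatggtgtgactggggaaagacca
Ramp1 probe c: tgggagtggatctccatccattcctcaaaa

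The 9 member probes are 60 bases long with 35.0% to 55.0% G and C. No 2 of them share a run of more than 8 bases, and none but the Ramp3 probe shares 20 bases with another probe of the array. Whether each lies in coding sequence or a UTR was not annotated here.

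Adm, the precursor of adrenomedullin, a vasodilator that also tightens endothelial junctions, was at nearly the same level on both arrays. Its probe (NM_009627, chr7:117773088-117773147) had a signal of 18500 in ob/ob LSEC and 12179 in wild-type LSEC, or a level of 12.9 in ob/ob and 12.3 in wild-type. The difference was 0.07 (1.05-fold), smaller than the scanner SD of 0.20. It was 0.19 above the median of all genes, and with scaling on the array median it turned to -0.21.

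Apln, the precursor of apelin, had the highest difference among the 6 members measured on both arrays by the probe that represents them, short of 2-fold. Its probe (NM_013912, chrX:45378593-45378652) had a signal of 15200 in ob/ob LSEC and 6446 in wild-type LSEC, or a level of 10.6 in ob/ob and 6.52 in wild-type. The ob/ob array was the higher by 0.71 (1.63-fold, scanner SD 0.20), and 91.7% of all measured genes had a difference at or below that of Apln. The Apln difference was positive under all 10 other ways of processing, between 0.43 and 0.94. For a gene with 1 bright probe, 3 of these settings (averaging the measured probes, no filter on dim probes and the authors' deposited values) give back the reported value by construction, here and in the counts of settings below. The difference of Apln exceeded that of Adm by 0.63 (scanner SD 0.29), and by 0.55 to 0.63 under the 9 other settings applied to all genes.

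**Figure D1:**
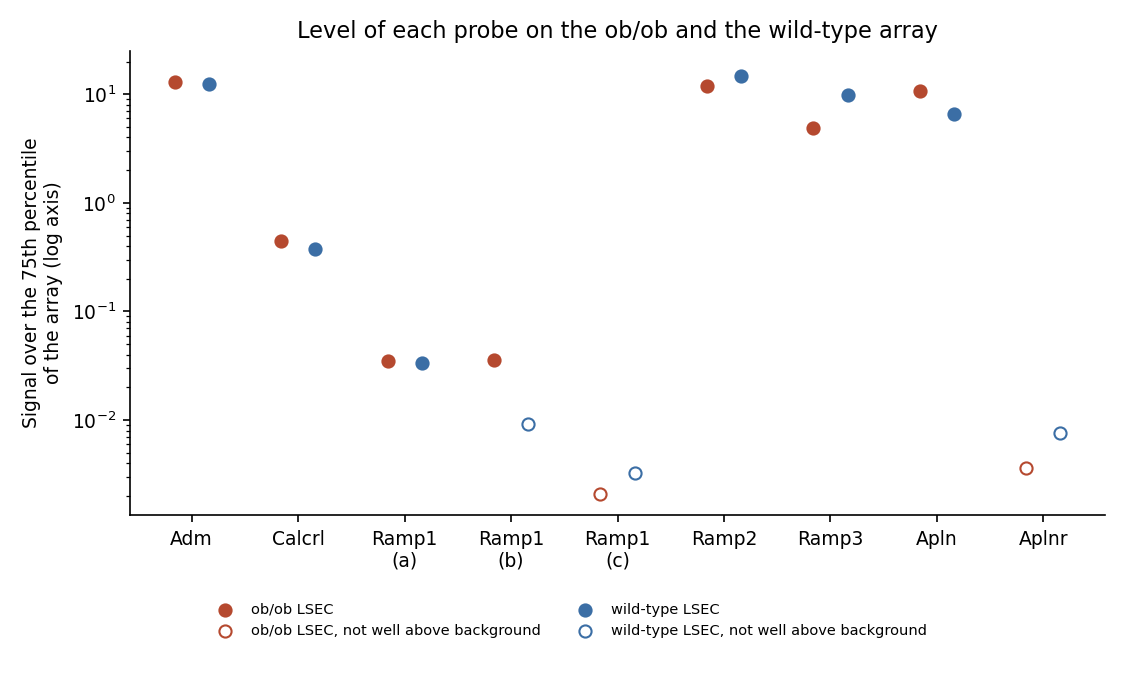
Level of each probe (signal over the 75th percentile of its array, log axis) in ob/ob LSEC (red, left) and wild-type LSEC (blue, right), 1 array each; bars for 1 SD of scanner error are smaller than the points, and open points were not well above background. The levels of Adm were 12.9 and 12.3, those of Ramp3 4.87 and 9.92, and those of Apln 10.6 and 6.52 in ob/ob and wild-type, while Aplnr and Ramp1 probe c were open on both arrays. Heights are not comparable between genes.

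Calcrl, the seven-pass receptor chain shared by all 3 RAMP partners, was measured on both arrays. Its probe (NM_018782, chr2:84173073-84173132) had a signal of 635 in ob/ob LSEC and 373 in wild-type LSEC, or a level of 0.444 in ob/ob and 0.377 in wild-type. The difference was 0.24 (1.18-fold), close to the scanner SD of 0.20. It was -0.04 once arrays were scaled on their medians, and -0.01 where normexp preceded the 75th percentile.

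Ramp2, the partner that makes Calcrl the main endothelial adrenomedullin receptor, had a signal of 16900 in ob/ob LSEC and 14478 in wild-type LSEC (NM_019444, chr11:101109501-101109560). Its level was 11.8 in ob/ob and 14.6 in wild-type, a difference of -0.31 (0.807-fold, scanner SD 0.20). Bright genes as a whole had negative differences, and the lowess curve of difference on level stood at -0.27 there, which leaves -0.04 for Ramp2 after centring on the level.

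Ramp3, the partner of the other adrenomedullin receptor, which in human cells steers the receptor towards recycling after endocytosis, was the 1 gene at least 2-fold different among the 6 members measured on both arrays by the probe that represents them. Its probe (NM_019511) had a signal of 6960 in ob/ob LSEC and 9808 in wild-type LSEC, or a level of 4.87 in ob/ob and 9.92 in wild-type. The difference was -1.03 (0.491-fold, scanner SD 0.20), and 2.08% of all measured genes had a difference as low or lower. The overlapping probe shown above, at another place on the array, had a signal of 5400 in ob/ob LSEC and 7930 in wild-type LSEC, a level of 3.78 in ob/ob and 8.02 in wild-type, and a difference of -1.09 (scanner SD 0.20). The 2 probes read the same stretch of RNA in the same extracts, so they repeat the spot and not the mouse.

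The call of Ramp3 at 2-fold sits on the threshold, while its sign does not. The difference was negative under all 11 alternatives, from -1.31 with scaling on the array median to -0.80 with normexp and quantile normalization, and past 2-fold in 5 of them. Of these 5, 3 give back the reported value by construction and another is the overlapping probe, so scaling on the array median is the only other processing past 2-fold. After centring on the level it was -0.81, and 2.78% of genes had a centred difference as low or lower. Spots within 10 rows and columns of the Ramp3 probe had a median difference of -0.09, near that of all genes, and its local background was 57.5 on the ob/ob array and 60.5 on the wild-type array.

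The difference of Ramp3 lay below those of Ramp2, Calcrl and Ramp1 probe a, with 1 exception among the 9 other settings applied to all genes. The Ramp3 difference was below that of Ramp2 by a gap of -0.72 and below that of Calcrl by a gap of -1.26, each with a scanner SD of 0.29, and below that of Ramp1 probe a by a gap of -1.07 (scanner SD 0.32). Over those settings the gap to Ramp2 was -0.77 to -0.68, and with normexp and the 75th percentile the gap to Calcrl was -0.81 and that to Ramp1 turned to 0.50. The Ramp2 difference was below that of Calcrl by a gap of -0.55 (scanner SD 0.29), which was -0.13 in that setting. Levels of different probes cannot be set against each other, so the share of Calcrl that pairs with either RAMP is not given by these values.

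**Figure D2:**
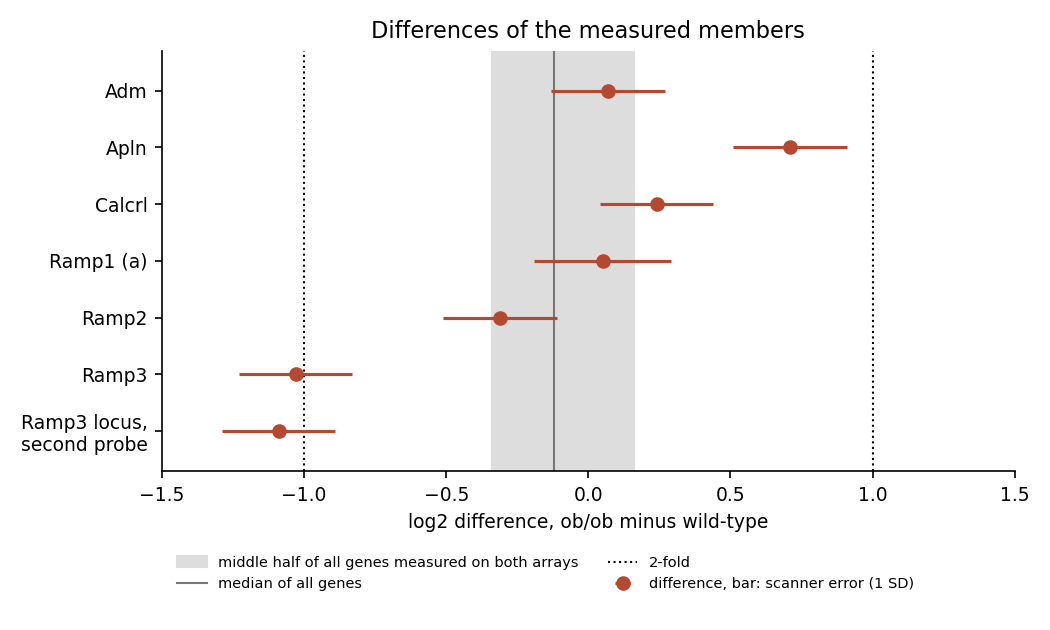
log2 difference (ob/ob minus wild-type) of the members measured on both arrays and of the second probe at the Ramp3 locus; bars are 1 SD of the scanner's error model, the grey band spans the quartiles of all genes (-0.34 to 0.16) and dotted lines mark 2-fold. Ramp3 at -1.03 and its second probe at -1.09 lie at the 2-fold line. Apln at 0.71 and Calcrl at 0.24 lie above the band, and Adm, Ramp1 probe a and Ramp2 lie inside it.

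Ramp1, the partner that makes Calcrl the receptor of calcitonin gene-related peptide, gave a different reading with each of its 3 probes. Probe a was well above background on both arrays, with a signal of 49.7 in ob/ob LSEC and 33.3 in wild-type LSEC, and its difference was 0.05 (1.03-fold, scanner SD 0.24). Probe b was above background on the ob/ob array only, with a signal of 50.7 in ob/ob LSEC against 9.11 in wild-type LSEC. It was at least 2.84-fold brighter in ob/ob, where the bound sets the ob/ob level against the dimmest wild-type signal that counted as measured, an intensity of 12.3. Probe c was above background on neither array, with signals of 2.98 in ob/ob LSEC and 3.22 in wild-type LSEC.

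The Ramp1 value thus depends on the probe. Of 25520 probes measured on at least 1 array, 10.5% were, like probe b, measured on the ob/ob array only. Probe c reads the same transcript as probe b and was at background, so the 2 probes of NM_016894 disagree on the ob/ob array. On the wild-type array neither was well above background. Probe a stands close to background, and with normexp and the 75th percentile its difference was -1.32. Stellate cells and smooth muscle can express Ramp1, and beside probe b stands a median difference of 2.05 over the stellate cell and fibroblast markers (0.66 and 1.06 under the 2 normexp settings). Of 6 smooth muscle markers, Acta2 at 2.42 and Tagln at 1.41 were at least 2-fold higher, Smtn was at -0.18, and Myh11, Cnn1 and Lmod1 were above background on neither array. Their part in the Ramp1 signal was not tested.

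Aplnr, the receptor of apelin, could not be measured in either preparation, its spot being too dim. Its single probe (NM_011784, chr2:84979638-84979697) had signals of 5.13 in ob/ob LSEC and 7.53 in wild-type LSEC, against dimmest measured signals of 11.7 on the ob/ob and 12.3 on the wild-type array. No difference is given. Apln was thus measured in both preparations without a measurable signal of its receptor from this 1 probe.

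**Figure D3:**
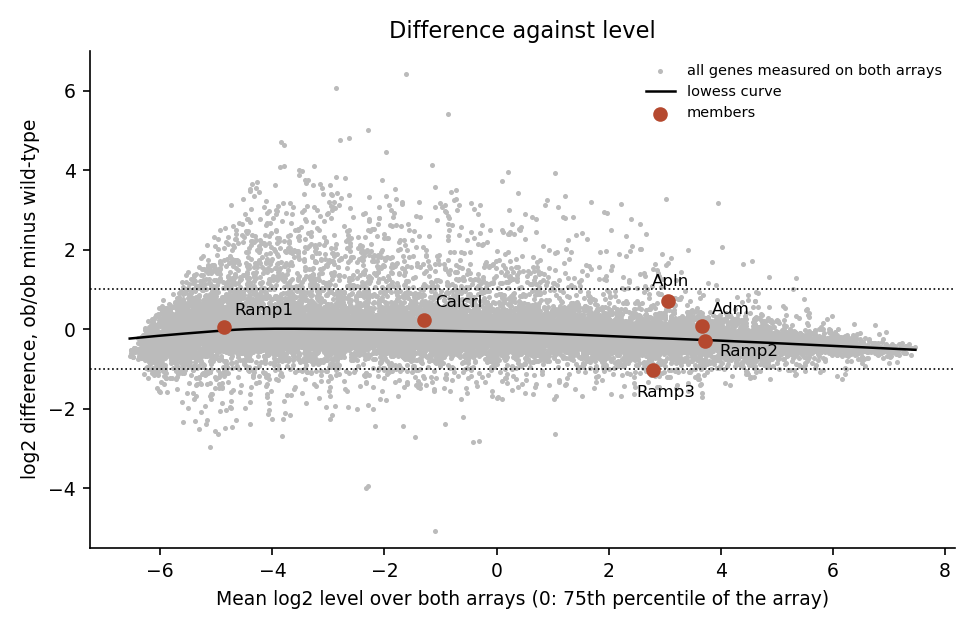
log2 difference (ob/ob minus wild-type) against mean log2 level over both arrays for 18139 genes (grey), with the lowess curve (black), dotted 2-fold lines and the 6 measured members (red). The curve stands at -0.24 at the level of Apln and at -0.22 at that of Ramp3, so centring moves Apln to 0.94 and Ramp3 to -0.81.

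Of 9 related ligands and receptors, 8 are on the array and 3 were measured. The other peptides of the calcitonin family, Adm2, Calca, Calcb and Iapp, and the calcitonin receptor Calcr were above background on neither array, and Apela, which encodes the other ligand of Aplnr, has no probe under that name. Ackr3, an atypical chemokine receptor that in mice also removes adrenomedullin, had a level of 0.537 in ob/ob LSEC and 0.0712 in wild-type LSEC, a difference of 2.91 (7.54-fold) that was at least 2-fold under all 9 other settings (1.08 to 3.03). Gpr182, an atypical chemokine receptor of sinusoidal endothelium once proposed as an adrenomedullin receptor, had a level of 4.29 in ob/ob LSEC and 2.54 in wild-type LSEC, a difference of 0.75. Crcp, a small protein that couples the receptor of calcitonin gene-related peptide to signalling, differed by -0.31.

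Of 6 measured genes that process, bind or degrade these peptides, 4 were at least 2-fold higher in ob/ob and 0 lower. The shares over all genes were 5.82% and 2.29%. The list had a median of 1.10 beside -0.12 over all genes. Pam, the enzyme whose amidation adrenomedullin needs for activity, had a level of 0.146 in ob/ob LSEC and 0.0312 in wild-type LSEC, a difference of 2.23 (4.68-fold). Klkb1, plasma kallikrein, which can cleave apelin, differed by 1.30. Ece1, the endothelin-converting enzyme, which also degrades calcitonin gene-related peptide, differed by 1.04. Furin, which cleaves the apelin precursor, and Ide, a protease of insulin and amylin, were within 2-fold at -0.12 and -0.04. Mme, neprilysin, a peptidase that breaks down both peptides, was above background on neither array.

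Some of these processing genes are also known from the other cells of the liver, Klkb1 from hepatocytes and Pam from fibroblasts. The hepatocyte markers had a median difference of 2.53 and the stellate cell and fibroblast markers of 2.05, and their part in these 4 values was not tested. The count of 4 was 1 under normexp, whichever of the 75th percentile and quantile normalization followed, and 2 once arrays were scaled on their medians. With normexp and the 75th percentile, Klkb1 turned to -0.90 and Pam to -0.09, and Ece1 stayed positive under all 9 other settings (0.48 to 1.15).

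The signalling genes downstream of these receptors were mostly within 2-fold, as were most of all measured genes. Of 27 measured genes for G proteins, adenylyl cyclases, protein kinase A, phosphodiesterases and arrestins, 2 were at least 2-fold higher and 2 lower. Over all genes, 5.82% were higher and 2.29% lower by as much. The other 23 lay between. The list had a median of -0.17, which was -0.04 after centring on the level. The adenylyl cyclase Adcy7, at a level of 0.374 in ob/ob LSEC and 0.0615 in wild-type LSEC, was higher by 2.60, and Adcy5 by 1.88. Adcy4, another adenylyl cyclase, differed by -0.21. The macrophage, hepatocyte and stellate cell lists had medians of 2.09, 2.53 and 2.05. Whether those cells have a part in the cyclase values was not tested. Over the 9 other settings Adcy7 ranged between 0.99 and 2.72 and Adcy5 between -0.78 and 1.99. Prkar2b, a regulatory subunit of protein kinase A, was lower at -1.27 (level 2.37 in ob/ob and 5.71 in wild-type), its other 2 probes gave -1.06 and -1.02, and it was past 2-fold under all 9 other settings. The phosphodiesterase Pde3a gave -1.56 by its brighter probe and 1.80 by another, and its range over those settings was -1.84 to 0.12. Gnas, the stimulatory G protein that adrenomedullin receptors use, differed by 0.33, the arrestins Arrb1 and Arrb2 by -0.27 and 0.20, and the cAMP-activated exchange factor Rapgef3 by -0.84.

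Since Adm and Apln are known targets of the hypoxia-inducible factors, other targets were set beside them. The 17 measured hypoxia-inducible targets had a median of 0.44 beside -0.12 over all genes. Of the 17, 6 were at least 2-fold higher in ob/ob and 0 lower, beside 5.82% and 2.29% of all genes. These 6 were the growth factor Vegfa at 1.75, the kinase Pdk1 at 1.60, the oxygen-sensing hydroxylase Egln3 at 1.43, the carbonic anhydrase Car9 at 1.42, the mitophagy receptor Bnip3 at 1.41 and Ankrd37 at 1.01. Vegfa, Egln3 and Bnip3 were past 2-fold under all 9 other settings, Pdk1 under 7 and Ankrd37 under 5, and Car9 ranged between -0.86 and 1.54. The glycolytic genes Pgk1 at -0.21 and Aldoa at -0.13 and the glucose transporter Slc2a1 at 0.31 were within 2-fold. Pfkfb3 was at 0.94 by its brightest probe and at 1.30 by another, and past 2-fold under 6 of the 9 other settings. Ldha was at -0.02 by its brightest probe, and its 2 other probes gave 1.22 and 1.59. The factor Hif1a differed by 0.95, at a level of 14.3 in ob/ob LSEC and 7.37 in wild-type LSEC. Over the 9 other settings Hif1a ranged between 0.67 and 1.29, past 2-fold in 5 of them. Epas1 was at 0.14 by its brightest probe, and its 2 other probes gave -0.92 and -0.08. Arnt was at -0.20 by its brightest probe and at -0.43 by another. Adm at 0.07 was below the median of this list and Apln at 0.71 above it. The macrophage, hepatocyte and stellate cell lists had medians of 2.09, 2.53 and 2.05, and the part of those cells in these values was not tested.

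Apln is also a gene of tip cells, the leading cells of a vessel sprout. Of 12 tip cell genes, all measured, 4 were higher in ob/ob by at least 2-fold, 0 were lower by as much and 8 lay between. Among all genes, 5.82% were higher and 2.29% lower by as much. The tip cell list had a median of 0.01. The Notch ligand Dll4 differed by 2.28, the growth factor Pdgfb by 1.93, the basement membrane protein Nid2 by 1.58 and the chemokine receptor Cxcr4 by 1.05. All 4 were positive under all 9 other settings, and Cxcr4 was past 2-fold in 7 of them. Esm1 at 0.11, Angpt2 at -0.08, the receptor Kdr at -0.09 and the guidance receptor Unc5b at -0.69 were within 2-fold. Nid2 and Pdgfb are made by stellate or other mural cells or by macrophages as well, beside median differences of 2.05 and 2.09 in those marker lists. The part of other cell types in the 4 higher values, Cxcr4 and Dll4 included, was not tested.

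**Figure D4:**
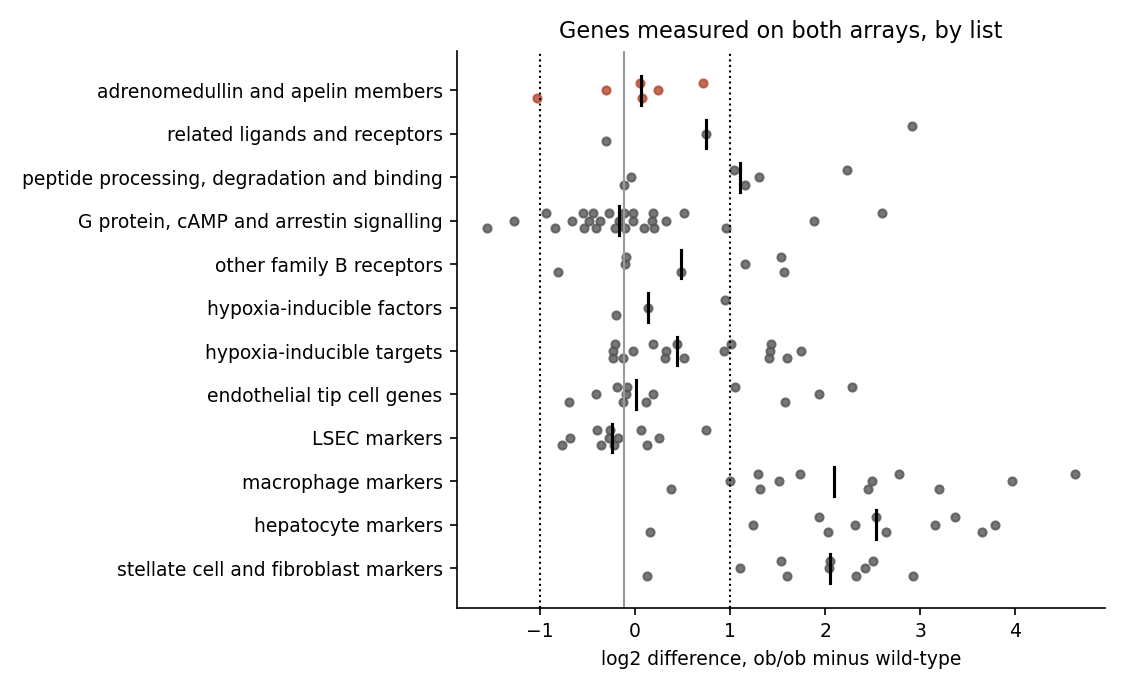
log2 difference (ob/ob minus wild-type) of every gene measured on both arrays, by list, with a black bar at each list's median, a grey line at the median of all genes (-0.12) and dotted lines at 2-fold. The members have a median of 0.06 and the LSEC markers of -0.24, while the macrophage, hepatocyte and stellate cell lists have medians of 2.09, 2.53 and 2.05.

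The sequences upstream of the 2 ligand genes and of Ramp3 were searched for the core of the hypoxia response element, ACGTG or GCGTG, and for TGACG of the cAMP response element, on both strands. They are shown because these 3 genes are the known oxygen-regulated ligands and the gene past 2-fold among the members measured on both arrays. The windows come from RefSeq (GRCm38.p6) and end at the base before the annotated gene, and capitals mark a match. For Ramp3 the annotated gene begins upstream of the start site of the window, so its window covers the bases 250 to 28 before that site and lacks those nearest to it.

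Adm, chr7:110627407-110627656, plus strand: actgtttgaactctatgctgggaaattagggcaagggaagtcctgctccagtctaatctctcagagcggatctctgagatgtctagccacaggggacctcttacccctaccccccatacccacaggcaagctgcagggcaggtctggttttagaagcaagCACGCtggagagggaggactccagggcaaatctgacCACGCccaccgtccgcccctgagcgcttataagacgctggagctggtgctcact
Apln, chrX:48034854-48035103, minus strand: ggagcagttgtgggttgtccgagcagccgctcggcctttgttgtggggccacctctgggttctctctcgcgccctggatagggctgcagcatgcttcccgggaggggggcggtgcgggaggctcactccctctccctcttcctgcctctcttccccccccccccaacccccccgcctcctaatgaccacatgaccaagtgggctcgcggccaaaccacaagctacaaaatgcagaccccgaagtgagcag
Ramp3, chr11:6658283-6658505, plus strand: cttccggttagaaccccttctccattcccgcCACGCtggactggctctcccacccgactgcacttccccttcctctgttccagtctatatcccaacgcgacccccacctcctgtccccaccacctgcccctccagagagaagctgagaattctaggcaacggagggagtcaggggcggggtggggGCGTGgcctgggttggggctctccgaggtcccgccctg

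The Adm window held 2 matches to GCGTG, both on the strand opposite to the gene and starting 90 and 54 bases before the start site. The Ramp3 window of 223 bases held 2 as well, 1 on each strand. The Apln window held none, and TGACG was in none of the 3 windows. Of 32851 mouse promoter windows, 38.6% held at least 1 match to either core in 250 bases and 16.7% held 2 or more, and the shares were 35.0% and 14.0% in 223 bases. TGACG was in 17.8% of the windows of 250 bases. Matches are letters in a window and are not evidence of binding. Windows were also given for Calcrl and Ramp1, where neither motif was found in the 111 and 250 bases before the gene, where the window of Calcrl lacks the bases nearer than 140 to its start site.

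**Figure D5:**
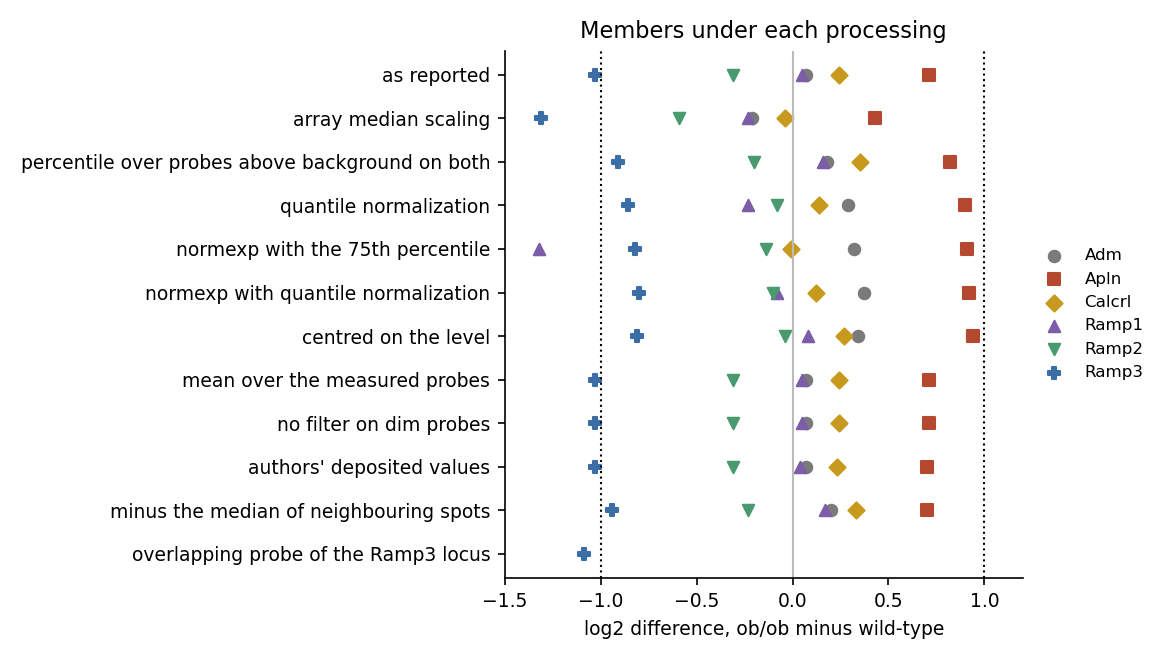
log2 difference (ob/ob minus wild-type) of the 6 measured members as reported and under each other processing, with dotted lines at 2-fold. Ramp3 stays left of 0 under all of them (-1.31 to -0.80) and Apln right of 0 (0.43 to 0.94), whereas Adm, Calcrl and Ramp1 lie on either side of 0.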

How the data were processed

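The deposited spot intensity comes from Agilent Feature Extraction 11.0.1.1, per the submitters' processing notes. It was taken, per the file headers, with background subtracted and spatial trends removed, on a 1-colour Agilent mouse design with positions on mm9. The authors' deposited table of 24868 features holds processed signal on a linear scale, which equals the intensity over the 75th percentile of its array (column medians 0.647 for ob/ob and 0.614 for wild-type). It is not centred per gene.

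Spots flagged as outliers were dropped (120 on the ob/ob and 148 on the wild-type array), as were control spots. No other spot was saturated. Signals well above background made up 64.8% of spots on the ob/ob and 58.6% on the wild-type array. Levels are log2 of the intensity minus log2 of the 75th percentile over 43020 spots. A gene is represented by its brightest probe measured on both arrays, and where it has none, on 1. Names were updated through RefSeq accessions (GRCm38.p6), 26055 probes by their main accession and 102 by another. The array design's own name stayed in use for 8550, and 4722 have none.

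A single array per genotype allows no test. Genes past 2-fold were counted, and all 7 members are named, as are the genes past 2-fold of each other list, up to the 6 largest differences, and any gene of the ligand, processing and factor lists. Other genes named for contrast were chosen after their values were seen. Some genes of the processing list count in its numbers and are not reported here by name. The members and lists were chosen with earlier results of these data known. The number of arrays limits the precision. Alternatives were other scalings, normexp (limma 3.58.1, offset 50), a lowess curve (statsmodels 0.14.6, fraction 0.3), all measured probes, no filter on dim probes and the authors' table. The counting steps were tested on simulated data.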

Additional observations from a re-analysis of the deposited data

How the results depend on the processing

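A difference was taken as moved where it shifted by more than 0.33, the SD between probes of a gene, and a count where it changed by over 1.5 times. The members' differences stayed within that margin under every alternative but 1, Ramp1 at -1.32 with normexp and the 75th percentile. Scaling on the array median lowered the median of all genes to -0.40, from which the negative values of Adm and Calcrl in that setting follow. Calcrl was also at -0.01 with normexp and the 75th percentile. Members at least 2-fold lower numbered 0 with the percentile taken over probes above background on both arrays, with quantile normalization, with normexp and quantile normalization and with centring on the level, 2 (Ramp3 and Aplnr) without the filter on dim probes, and 1 with normexp and the 75th percentile, where that 1 is Ramp1 and not Ramp3. Over all genes, those at least 2-fold higher were 369 with normexp and the 75th percentile, 509 with normexp and quantile normalization and 2679 without the filter, against 1056 as reported. Those lower were 977 with array median scaling, 3832 with normexp and the 75th percentile, 130 with normexp and quantile normalization and 1634 without the filter, against 416. The median of the processing genes was -0.02 with normexp and the 75th percentile, and 0.49 where quantile normalization followed normexp. That of related ligands and receptors was -0.48 without the filter, that of the hypoxia-inducible factors -0.29 with all measured probes averaged, and that of other family B receptors -1.12 with normexp and the 75th percentile. Where the table does not show it above, the cause was not tested. Neighbouring spots and the overlapping Ramp3 probe were chosen as alternatives after seeing the data. Dim probes, here Ramp1 and Aplnr, are limited by signal over background. No paired analysis was possible because each group holds 1 sample.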

Other observations

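Calcrl belongs to the family B receptors, which bind peptide hormones. Of 13 other receptors of the family, 7 were measured on both arrays, with a median of 0.48. Of these 7, 3 were at least 2-fold higher in ob/ob and 0 lower, beside 5.82% and 2.29% of all genes. Pth1r, the receptor of parathyroid hormone, had a level of 0.242 in ob/ob LSEC and 0.0817 in wild-type LSEC, a difference of 1.57. Gcgr, the glucagon receptor of hepatocytes, had a level of 0.268 in ob/ob LSEC and 0.0930 in wild-type LSEC, a difference of 1.53, beside a hepatocyte marker median of 2.53. Glp2r gave 1.16 with the brighter of its probes and -0.29 with the dimmer, and its range over 9 other settings was -1.12 to 1.27. Vipr1, a receptor of vasoactive intestinal peptide, differed by 0.48 with a second probe at 0.50. Adcyap1r1 was at least 5.42-fold brighter in ob/ob and Pth2r at least 3.88-fold brighter in wild-type, each above background on 1 array only. The 3 higher receptors were 0 in number under either normexp setting. Receptors at least 2-fold lower numbered 4 with normexp and the 75th percentile and 2 without the filter on dim probes. Scaling on the array median and quantile normalization each gave 1 lower.

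Adrenomedullin signalling through Calcrl is known from lymphatic vessels, so lymphatic markers were read too. Of 6, the lymphatic master regulator Prox1 and Mmrn1 were above background on neither array. Reln, which is also in the list of stellate cell and fibroblast markers, was above background in ob/ob only, with a bound of 1.09-fold. Itga9 differed by 0.14. Pdpn, which fibroblasts make as well, was 1.41 higher, at a level of 0.666 in ob/ob LSEC and 0.250 in wild-type LSEC. Ccl21a, a chemokine of lymphatic endothelium, was lower at -2.57, at a level of 0.0127 in ob/ob LSEC and 0.0750 in wild-type LSEC, and between -2.85 and -0.89 over 9 other settings. Its ob/ob spot was close to the dimmest signal that counted as measured.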
